A study of Saccharomyces cerevisiae with 4 samples.

Results

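Enrichment of translated messages next to the mitochondrial outer membrane was compared between yeast cells given cycloheximide and cells without it. The measure was the log2 ratio of pulldown to input with cycloheximide minus the same ratio without it, each library scaled to its reads in nuclear genes. All nuclear genes with at least 100 reads over each pair of libraries were taken, which gave 5141 of the 6692 genes listed, or of the 6664 encoded in the nucleus. Values are centred on the median gene, which stood at -0.65 before centring.

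The data come from proximity-specific ribosome profiling of budding yeast (Saccharomyces cerevisiae, strain S288C) in SD medium. All libraries share a genotype: OM45 carries a fusion to the fluorescent protein mVenus and the biotin ligase BirA (om45::OM45-mVenus-BirA::HIS5), both RPL16 genes carry an HA-TEV-AVI tag that BirA can biotinylate, and ura3Δ0, met15Δ0 and his3Δ1 are marker alleles. In the drug condition cells received 100 µg/ml cycloheximide for 2 min and then 10 nM biotin for 2 min, in the other condition only the biotin, and each condition gave 1 input library of all ribosomes and 1 streptavidin pulldown. The labels also list leu2::pPGK1-BirA::LEU2, a BirA gene behind the PGK1 promoter with no Om45 named in it, and its part in the labelling was not tested.

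Most mitochondrial proteins are encoded in the nucleus, translated by cytosolic ribosomes and imported through the TOM complex of the outer membrane, many of them by an N-terminal presequence that emerges first from the ribosome. A message can be held at the membrane by the growing protein, so a ribosome has to be still translating while the targeting signal is exposed. Cycloheximide blocks elongation and holds ribosomes on their messages.

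With 1 library per group there is no replicate check, no p-value is given, and the drug cannot be told apart from any other difference between the cultures. Libraries held 15705022 to 37467060 reads in listed genes. Bracketed 95% intervals cover counting error only, and that of the difference extended a median of 0.18 log2 units to either side. A gene is called enriched in a condition when its ratio exceeded that of the condition's median gene by 2-fold or more. Each condition and the difference are centred on their own medians, so a difference need not equal the subtraction of the printed enrichments.

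Messages for mitochondrial proteins fell into 4 kinds, according to whether they were enriched only with the drug, in both with a difference of at least 2-fold, in both with a smaller difference, or in neither. Of the 571 measured genes in the authors' reference set of mitochondrial proteins, 363 were enriched with cycloheximide and 197 without it. For all measured genes the numbers were 668 (13%) and 328 (6.38%). The reference set divided into 168 genes enriched with the drug only, 157 enriched in both with a difference of at least 2-fold, 38 enriched in both with a difference under 2-fold, and 206 enriched in neither. THI4, an enzyme of thiamine synthesis, and SOM1, a subunit of the inner membrane peptidase, were enriched without the drug only, with differences of -0.94 and -0.98. Their class is not settled, with 47 and 73 reads in the input without the drug. The interval of THI4 with the drug (0.55 to 1.24) and that of SOM1 without it (0.93 to 1.76) span the 2-fold limit.

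The difference itself was at least 2-fold above the median gene for 311 of the 571 mitochondrial genes, against 492 of all 5141 genes (9.57%). None of the 571 was at least 2-fold below it, against 32 of all genes (0.622%). The median difference was 1.12 in the reference set, with quartiles of 0.22 and 1.87, and -0.03 among the 4570 other genes. Without centring, 234 genes exceeded 2-fold on the higher side and 693 on the lower side, and the mitochondrial genes enriched in both conditions became 65 with a difference of at least 2-fold and 118 under it. The balance of higher and lower genes, and of the 2 kinds enriched in both, thus turned with the reference level.

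**Figure D1:**
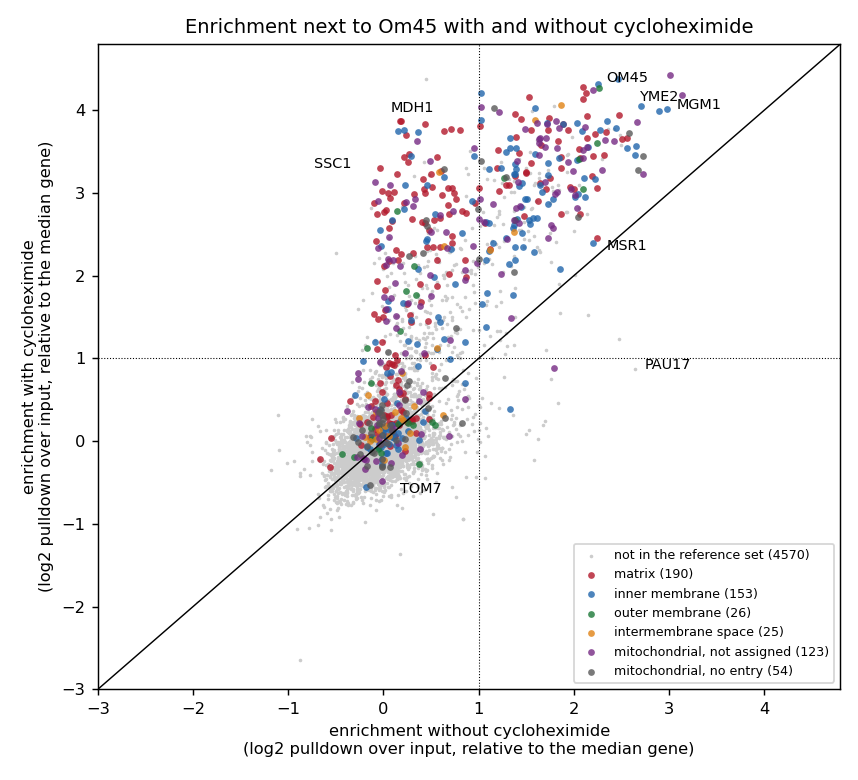
Log2 enrichment with cycloheximide (vertical axis) against that without it (horizontal axis) for 5141 genes, relative to the median gene of each condition, with 1 library per group. Coloured points are mitochondrial genes by compartment in the authors' annotation, dark grey points are 54 mitochondrial genes with no compartment entry, light grey points are other genes, the solid line marks equal enrichment and dotted lines mark 2-fold. Matrix genes such as MDH1 and SSC1 form a column near 0 on the horizontal axis, whereas MGM1 and YME2 lie at the right near 3.

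The 10 largest differences in the reference set belonged to MDH1, CIT1, ATP1, ATP3, BAT1, ALD4, SDH1, SSC1, ILV2 and ILV3, all enzymes, ATP synthase subunits or a chaperone that act in the matrix or on its side of the inner membrane. MDH1, the malate dehydrogenase of the TCA cycle, held 193 RPM, which is reads scaled to 1000000 nuclear-gene reads, in the input with the drug and 1708 RPM in its pulldown. Without the drug it held 237 and 261. Its message was thus enriched at 3.87 with the drug and 0.17 without, a difference of 3.66 (3.58 to 3.73). CIT1, the citrate synthase, went from 995 to 8752 RPM with the drug and from 643 to 714 without, and ATP1, the alpha subunit of the F1 part, from 779 to 6339 and from 929.9 to 1008. In each of these genes the pulldown without the drug was close to its input.

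SSC1, the matrix Hsp70 that pulls proteins through the import channel, and KGD1, a subunit of 2-oxoglutarate dehydrogenase, lay below the median gene without the drug. SSC1 held 1154 and 6881 RPM with the drug, against 2895 and 2765 without, for enrichments of 3.30 and -0.03. KGD1 encodes a long protein of 1014 residues and held 309 and 1256 with the drug, against 295 and 274 without, for enrichments of 2.75 and -0.07. Its long coding sequence was thus not enriched in the absence of the drug. In assembly R64, the sacCer3 build, MDH1 (YKL085W) lies on chromosome XI from 279123 to 280127, CIT1 (YNR001C) on chromosome XIV from 629622 to 631061, and SSC1 (YJR045C) on chromosome X from 519638 to 521602, all as protein-coding genes.

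At the other end, the inner membrane fusion GTPase MGM1, a relative of dynamin, was pulled down in both conditions. With the drug it went from 102 RPM in the input to 996 in the pulldown, and without it from 76.5 to 591. Its enrichment was 4.01 and 2.98, and its difference of 0.98 (0.88 to 1.09) lay just under 2-fold. The inner membrane ABC transporters MDL2 and ATM1, the latter needed for cytosolic iron-sulfur proteins, were also enriched in both conditions. MDL2 went from 63.0 to 450.1 RPM with the drug and from 40.6 to 250.3 without, and ATM1 from 39.8 to 263 and from 32.7 to 199.9. Their differences were 0.86 (0.73 to 1.0) and 0.77 (0.61 to 0.93). MGM1 (YOR211C) lies on chromosome XV from 738924 to 741569 and MDL2 (YPL270W) on chromosome XVI from 30482 to 32803.

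The same set of genes, those highest without the drug among the 38 with a difference under 2-fold, held factors of mitochondrial gene expression and DNA repair. CCM1, a pentatricopeptide protein of mitochondrial RNA processing, went from 42.1 to 246 RPM with the drug and from 19.9 to 124 without, a difference of 0.56 (0.37 to 0.75). NDE2, an NADH dehydrogenase on the outer face of the inner membrane, belonged to it too, at 2.56 without the drug with a difference of 0.94 (0.47 to 1.42). ATP22, a translational activator, stood at 2.72 without the drug with a difference of 0.47, SUV3, an RNA helicase of the degradosome, at 2.72 with 0.68, and AEP2 and MSH1, needed for a mitochondrial message and for mitochondrial DNA repair, at 2.30 and 2.24 with 0.93 and 0.78. MSR1, the mitochondrial arginyl-tRNA synthetase, held 27.3 and 90.5 RPM with the drug and 12.2 and 56.5 without. Its enrichments of 2.46 and 2.24 differed by 0.17 (-0.07 to 0.42), an interval that includes 0. So did the intervals of 4 membrane proteins with the lowest differences among enriched genes: CRC1, the carnitine carrier, at 0.16 (-0.44 to 0.76), SYM1 at 0.10 (-0.18 to 0.38), TPC1, the thiamine pyrophosphate carrier, at 0.19 (-0.38 to 0.77) and FLX1, the FAD carrier, at 0.26 (-0.11 to 0.62).

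**Figure D2:**
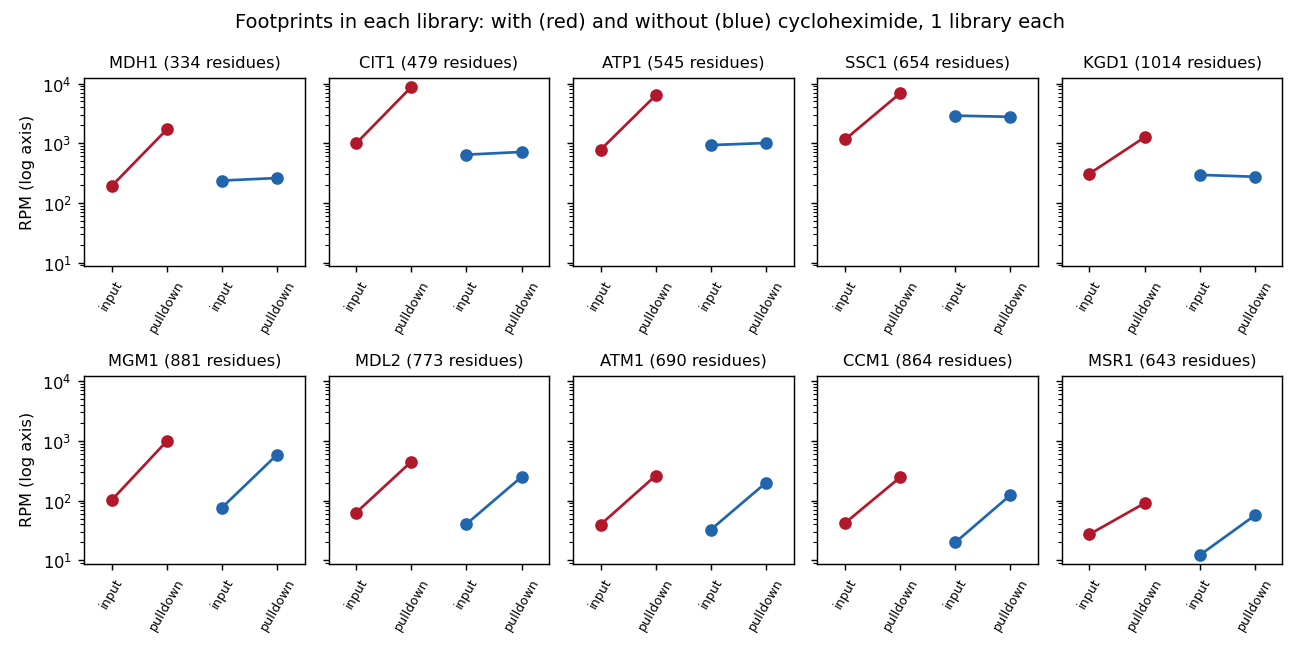
RPM, scaled to nuclear-gene reads (log axis), in the input and pulldown with cycloheximide (red) and without it (blue), 1 library each, for 5 genes with large differences (upper panels) and 5 enriched in both conditions with differences under 2-fold (lower panels). In the upper panels the red line rises, from 995 to 8752 for CIT1, and the blue line stays near level, from 643 to 714, whereas in the lower panels both lines rise.

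The bait message itself was pulled down in both conditions. OM45 (YIL136W) held 70.1 and 815 RPM with the drug and 31.0 and 146 without, for enrichments of 4.27 and 2.26 and a difference of 1.96 (1.81 to 2.11). The genes of the tagged ribosomal protein, RPL16A and RPL16B, had differences of 0.18 and 0.37. In the reference set the genes on either side of the 2-fold limit were COX11 (1.01), MSK1 (1.01) and HFA1 (1.0) above it and MGM1 (0.98), NIF3 (0.98) and PUS5 (0.98) below it, and their intervals span the limit.

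The 4 kinds of mitochondrial genes took different shares of the reads. The 168 genes enriched with the drug only made up 3.92% of nuclear-gene reads in the drug-treated input and 17.7% of those in its pulldown, against 3.41% and 4.08% without the drug. The 157 genes enriched in both but less without the drug went from 2.16% to 16.8% and from 1.35% to 4.39%. The 38 genes enriched in both with a difference under 2-fold held little of either input, 0.136% and 0.0620%, and rose to 0.632% and 0.283% of the pulldowns. The mitochondrial genes enriched in neither condition went from 10.3% to 7.22% with the drug and from 15.4% to 14.9% without it. Each class is defined by the ratio of pulldown to input in each condition. The rise or lack of rise in its share therefore follows largely from the class rule and is not a separate result. Among the drug-only genes, 156 of 168 had an interval of enrichment without the drug wholly under 2-fold, and 66 of 168 lay within 0.25 log2 units of the median gene there. Among the 38 genes enriched in both with a difference under 2-fold, 18 had an interval of the difference wholly under 2-fold, so counting error leaves the class of at least the other 20 unsettled. The class also needs enrichment without the drug. For some of the 18 the interval of that value spans the 2-fold limit, as for PET309 (0.78 to 1.30) and FLX1 (0.73 to 1.43).

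By compartment, matrix proteins had the larger differences and inner membrane proteins kept more of their enrichment. Of 190 matrix genes 125 had a difference of at least 2-fold, with a median of 1.48. Of 153 inner membrane genes 81 did, with a median of 1.05. Without centring the medians were 0.83 for the matrix and 0.40 for the inner membrane, where 36 genes then passed 2-fold. Among the genes enriched with the drug, 53 of 133 matrix genes and 73 of 106 inner membrane genes were also enriched without it, and the median enrichment without the drug was 0.69 for the matrix and 1.37 for the inner membrane. With the drug the medians were 3.02 and 2.93, so the medians lay further apart without the drug than with it. These 2 sets also differed in input density, with medians of 66.5 and 34.8 RPM per kilobase. In the lowest of the 4 density classes described below the order was reversed. There 18 of 23 matrix genes and 23 of 34 inner membrane genes were enriched without the drug, with medians of 2.00 and 1.38. Of the 38 genes enriched in both with a difference under 2-fold 19 were annotated to the inner membrane and 5 to the matrix.

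In the outer membrane and the intermembrane space fewer genes were enriched in either condition. Of 26 outer membrane genes 12 were enriched with the drug and 6 without, with a median difference of 0.52. TOM20, an import receptor of 183 residues, had the highest difference there at 2.59 with 0.15 without the drug, whereas TOM7, a 60-residue subunit of the TOM complex, had the lowest at -0.69. Of 25 genes of the intermembrane space 7 were enriched with the drug and 4 without, with a median difference of 0.20. The 123 genes annotated only as mitochondrial had a median of 1.23, and 77 of them had a difference of at least 2-fold.

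Medians of gene lists by pathway lay further apart than those of compartments, but the lists were chosen with earlier results of these data known. Of 20 genes for pyruvate dehydrogenase and TCA cycle enzymes, 19 were enriched with the drug and 1 without, and 18 had a difference of at least 2-fold, with a list median of 2.75 against 0 for all genes. The gene also enriched without the drug was CIT3, another mitochondrial citrate synthase, at 2.20. The differences of the succinate dehydrogenase subunits were unequal: SDH1 stood at 3.33 and SDH2 at 2.82, but the short membrane anchors SDH3 and SDH4, of 198 and 181 residues, at 0.29 and 0.38. In contrast, of 23 mitochondrial tRNA synthetases and translation factors all 23 were enriched with the drug and 20 also without it. Their median enrichment was 3.38 with the drug and 1.95 without, and 21 had a difference of at least 2-fold, with a median of 1.36.

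Enzymes of amino acid synthesis in the matrix were split within pathways. All 21 had a difference of at least 2-fold, with a median of 2.03, and 12 were also enriched without the drug. In the branched-chain pathway ILV2, the acetolactate synthase, stood at 0.35 without the drug, ILV3 at -0.09, ILV5 at -0.06 and BAT1, the aminotransferase, at 0.24, whereas the threonine deaminase ILV1 stood at 2.10 and LEU4 and LEU9, the isopropylmalate synthases, both at 2.14. In arginine synthesis ARG7 stood at 2.13, ARG5,6 at 1.94, ARG2 at 1.63 and ARG8 at 1.20, so all 4 were enriched without the drug. MIS1, of one-carbon metabolism, stood at 3.0 without the drug with a difference of 1.38.

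Chaperones and proteases of the matrix were enriched with the drug in 15 of 16 cases and without it in 7. SSC1, HSP60 and MGE1, the abundant core of folding, stood at -0.03, -0.10 and -0.02 without the drug. The processing peptidase subunits MAS1 and MAS2 stood at -0.08 and 0.31. OCT1, the octapeptidyl aminopeptidase, TCM62, a chaperone, and MDJ1, the J-protein partner of SSC1, stood at 2.22, 2.03 and 1.59. HSP10, of 106 residues, was enriched in neither condition, at 0.32 and 0.01.

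Inner membrane proteins differed by list, and 73 of all 153 were enriched in both conditions. Of 28 proteases, transporters and assembly factors 25 were enriched with the drug and 24 without, and 18 had a difference of at least 2-fold, with a median of 1.11. The m-AAA protease subunits AFG3 and YTA12 stood at 2.45 and 2.71 without the drug and the i-AAA protease YME1 at 2.25. PHB1, a prohibitin, was the 1 gene of this list enriched with the drug only, at 0.46 without it and a difference of 2.59. Of 29 carriers 23 were enriched with the drug and 16 without, with a median difference of 1.10. In the import machinery of the inner membrane 7 of 14 genes were enriched with the drug: TIM50, TIM44 and TIM54 kept 2.04, 1.88 and 2.15 without it, while the channel subunits TIM23 and TIM17 stood at 0.46 and 0.83 with the drug. Of 26 genes on the outer membrane list 14 had a difference of at least 2-fold, among them TOM70 and TOM71, import receptors that stood at 2.24 and 2.05 without the drug, and MCR1, at 0.59.

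Complexes with many short subunits were divided by protein length. In the mitochondrial ribosome 36 of 41 proteins of at least 200 residues were enriched with the drug and 14 without, and the median difference was 1.88. Of 32 shorter ribosomal proteins 4 were enriched with the drug and 1 without, and the median was 0.21. PET123, RSM24 and YML6 had differences of 2.83, 2.82 and 2.69, whereas MRPL27, of 146 residues, stood at -0.38. In the ATP synthase the 5 subunits of at least 200 residues all had a difference of at least 2-fold, with a median of 3.13, and of the 10 shorter ones 1 did, ATP14 at 1.51. In respiratory complexes III and IV the 4 longer subunits did, COR1, QCR2, CYT1 and RIP1, and none of 14 shorter ones. On the list of 17 small intermembrane space proteins 1 was enriched, MIA40, the receptor of their import, at 4.07 with the drug and 1.86 without. With 403 residues it was the only member of at least 200, and none of the 16 shorter ones was enriched in either condition. Of 14 genes for iron-sulfur clusters 9 had a difference of at least 2-fold, led by NFU1 at 3.18. Short proteins passed on this list too: 5 of 9 under 200 residues did, with a median of 1.08, and 4 of 5 longer ones, with a median of 2.59.

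**Figure D3:**
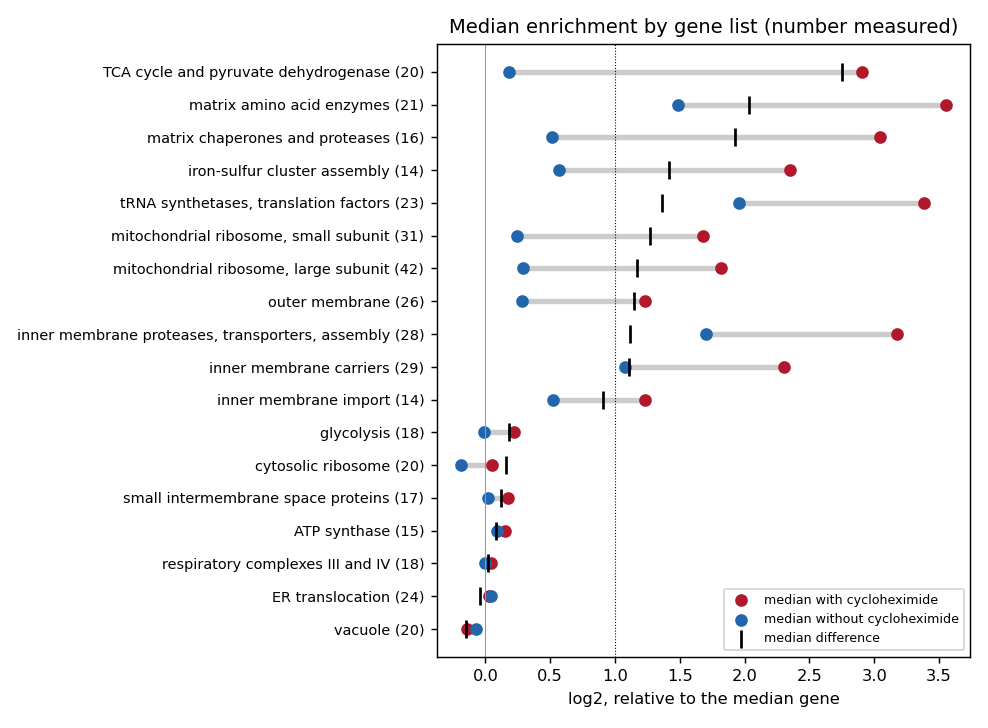
Median log2 enrichment of 18 gene lists with cycloheximide (red) and without it (blue) and the median difference (black tick), relative to the median gene, with the number of measured genes in parentheses. The TCA cycle list runs from 0.18 without the drug to 2.90 with it, and the tRNA synthetase list from 1.95 to 3.38.

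Lists of other cell parts held no enriched gene. None of 20 cytosolic ribosomal protein genes, 18 glycolytic genes, 24 genes of translocation into the endoplasmic reticulum or 20 vacuolar genes was enriched in either condition or had a difference of at least 2-fold. Their median differences ran from -0.15 for vacuolar genes to 0.19 for glycolysis. The highest single value was 0.74 for CDC19, the pyruvate kinase.

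Protein length was related to enrichment in each condition. Of 131 mitochondrial genes under 200 residues 20 were enriched with the drug, and their median difference was 0.12. Medians of all mitochondrial genes were 1.47 at 200 to under 400 residues (213 genes), 1.47 at 400 to under 600 (136), 1.15 at 600 to under 800 (50) and 0.96 at 800 or more (41). Among the 363 genes enriched with the drug, a choice that uses one side of the difference, the share also enriched without it was 3 of 20 under 200 residues, 69 of 161 at 200 to under 400, 75 of 114 at 400 to under 600, 31 of 41 at 600 to under 800 and 17 of 27 at 800 or more. Longer proteins were thus more often enriched in the absence of the drug up to the class of 600 to under 800 residues.

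Over the same length classes the median enrichment without the drug was 0.49, 0.76, 1.45, 1.81 and 1.86, and that with the drug 2.10, 2.81, 3.18, 3.36 and 3.06. The median difference went from 1.42 to 1.78, 1.68, 1.33 and 1.11. Across these 363 genes Spearman's rho with length was 0.37 for enrichment without the drug, 0.29 for that with it and -0.16 for the difference. Over all 571 mitochondrial genes, short ones enriched in neither condition included, rho of the difference with length had the opposite sign, at 0.31, and was 0.35 given density. Genes are not independent replicates, all these values share the same 4 libraries, and length and read density are themselves related across the 363 genes (rho = -0.34).

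**Figure D4:**
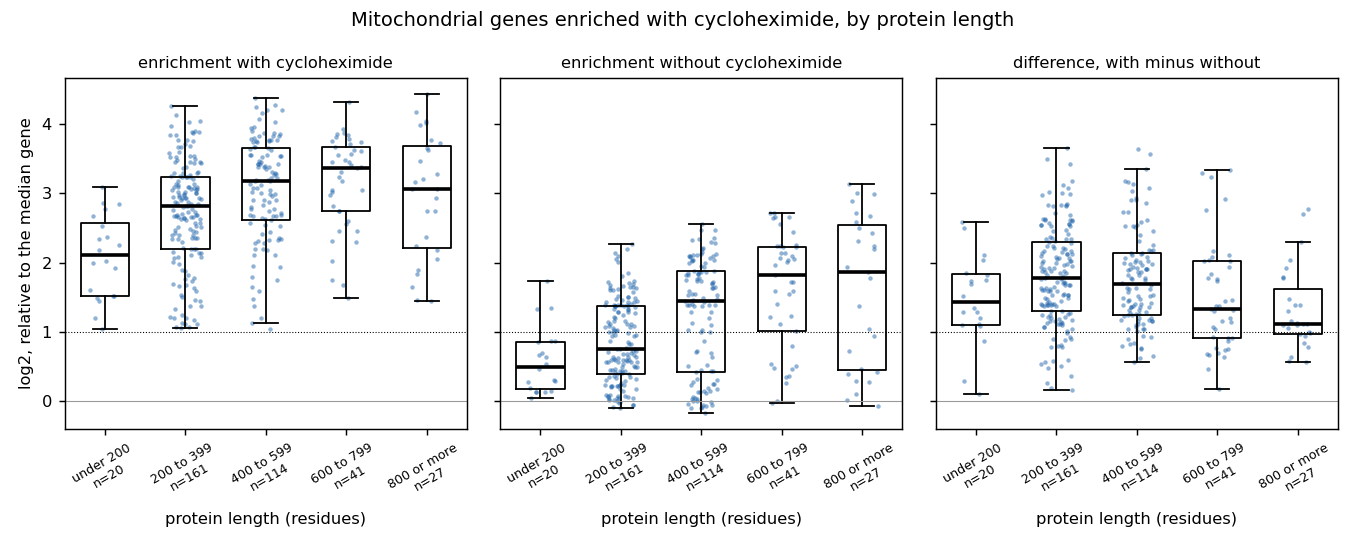
Log2 enrichment with cycloheximide, without it, and the difference, in 5 classes of protein length for the 363 mitochondrial genes enriched with the drug. Points are genes, boxes give quartiles with the median as the thick line, and whiskers reach to the last gene within 1.5 times the interquartile range of the box. The median without the drug goes from 0.49 to 1.86 and that of the difference from 1.42 to 1.11.

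Input abundance followed the difference more closely than length did among the 363 genes enriched with the drug, and not over all 571 mitochondrial genes. It is given as the density of input footprints, in RPM per kilobase of coding sequence, and as the mean of both inputs on the log scale because each input is itself part of the difference. All 5141 genes were divided into 4 density classes of 1285 or 1286 genes, with limits at 20.2, 43.3 and 117. Among the 363 enriched mitochondrial genes the median difference was 1.10 in the lowest density class (94 genes), 1.53 in the next (67), 1.78 in the one after (113) and 2.34 in the highest (89). The enrichment with the drug went from 2.71 to 2.92, 3.0 and 3.09 over the same classes, whereas that without it went from 1.53 to 1.38, 1.02 and 0.33. Also enriched without the drug were 70 of 94, 45 of 67, 58 of 113 and 22 of 89 genes. These genes were chosen by their enrichment with the drug, which is 1 term of the difference, so the trend is a description of the chosen genes. Over all 571 genes the median difference was 0.93, 1.20, 1.44 and 0.46 in the 4 classes, with no steady order, while rho of enrichment without the drug with density was -0.40 over the 571 as well as over the 363.

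Among the 363 genes the median difference rose over the density classes inside 2 length classes and both main compartments. At 200 to under 400 residues the median difference was 0.91, 1.54, 1.78 and 2.53 from the lowest to the highest density class (24, 29, 68 and 40 genes), and at 400 to under 600 residues it was 1.22, 1.52, 1.94 and 2.55 (38, 21, 26 and 29 genes). In the longer classes the order was not kept. It was 0.84, 1.76, 1.61 and 2.33 at 600 to under 800 residues (18, 9, 8 and 6 genes) and 1.05, 1.34, 1.78 and 0.94 at 800 or more (14, 6, 6 and 1 genes). For matrix genes it was 1.21, 1.89, 2.00 and 2.47, with 23, 18, 53 and 39 genes, and for inner membrane genes 0.91, 1.30, 1.61 and 2.31, with 34, 25, 25 and 22 genes. The class of 18 genes lies between its neighbours, and leaving it out does not change the order. Median enrichment without the drug over the same classes was 2.00, 1.11, 0.72 and 0.25 for the matrix. For the inner membrane it was 1.38, 1.51, 1.42 and 0.79, so the matrix stood higher in the lowest class and lower in the others. Spearman's rho of the difference with density was 0.58 across the 363 genes and 0.57 given length, while that with length given density was 0.05. Within the matrix it was 0.44 (133 genes) and within the inner membrane 0.67 (106 genes). Over all 571 mitochondrial genes, which include 206 enriched in neither condition with a median density of 115 and a median length of 179 residues, rho of the difference with density was 0.01 (0.18 given length), and over all 5141 genes it was 0.09.

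**Figure D5:**
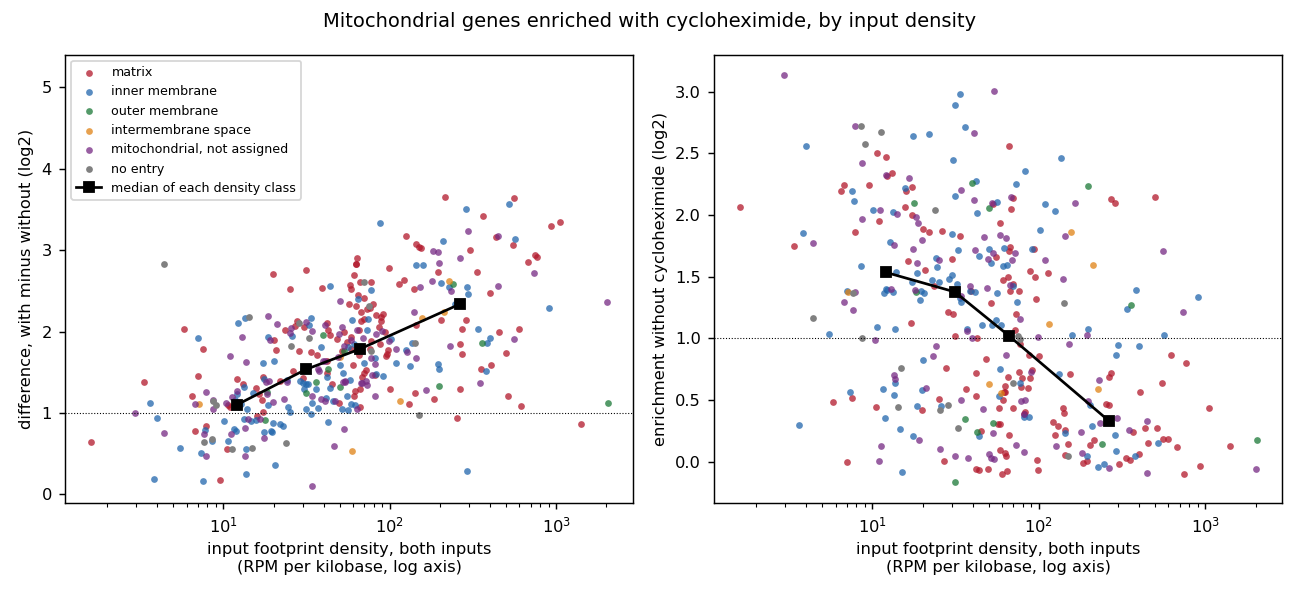
The difference (left) and the enrichment without cycloheximide (right), both log2 relative to the median gene, against the input footprint density in RPM per kilobase (log axis) for the 363 mitochondrial genes enriched with the drug. Points are genes coloured by compartment and black squares are medians of each density class, which go from 1.10 to 2.34 on the left and from 1.53 to 0.33 on the right.

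The groups of genes lay far apart in density. The 38 genes enriched in both with a difference under 2-fold had a median density of 12.2 and a median length of 614 residues, and all 38 fell into the lower 2 density classes. The 157 genes enriched in both but less without the drug had medians of 45.7 and 431 residues, and the 168 drug-only genes 77.7 and 350 residues, with 122 of 168 in the upper 2 density classes. The median density was 253 for the TCA cycle list and 13.4 for the tRNA synthetase list. A sparse message also has fewer reads, and its values are less certain. At 500 or more reads over each pair rho of the difference with density was 0.55 (325 genes).

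Related genes of like length but different density, chosen after their values were seen, showed the same order in some families and not in others. ECM10, an Hsp70 closely related to SSC1, had a density of 1.59 against 931 and a difference of 0.64 (0.02 to 1.26) against 3.29. It held 33 reads in the input without the drug. CIT3 had a density of 6.43 against 557 for CIT1 and a difference of 1.21 against 3.64. The ADP/ATP carriers PET9, AAC3 and AAC1, of 318, 307 and 309 residues, had densities of 907, 11.7 and 7.32 and differences of 2.29, 1.16 and 0.51. The interval of AAC1 was -0.06 to 1.08, with 48 reads in the input without the drug. By class these carriers did not keep the order: PET9 was still enriched without the drug, at 1.33, while AAC1 was enriched with the drug only, at 0.56 without it. The porins went the other way, with 2030.3 and 1.12 for POR1 against 35.9 and 1.38 for POR2, and the isopropylmalate synthases differed little, with densities of 500.1 and 67.7 and differences of 1.74 for LEU4 and 1.37 for LEU9. The counting of reads that match both copies is not described in the labels or file headers.

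Exceptions to the order by density were found at both ends, and the genes named here were chosen after their values were seen. Of the 89 genes in the highest density class, 22 were also enriched without the drug, among them DLD1, the lactate dehydrogenase of the inner membrane, at 2.47, the import receptor TOM70 at 2.24, LEU4 at 2.14, ARG7 at 2.13, the mitochondrial elongation factor gene TUF1 at 2.10, TIM50 at 2.04 and MIA40 at 1.86. TUF1 went from 382 to 4490 RPM with the drug and from 367 to 1537 without. Of the 94 genes in the lowest density class, 24 were enriched with the drug only. RPO41, the mitochondrial RNA polymerase of 1351 residues, went from 75.9 to 412 with the drug and from 85.9 to 112 without, a difference of 2.70, and GUF1 and SLS1, both linked to mitochondrial translation, stood at 0.48 and 0.54 without it.

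The difference contains the input ratio between conditions as one of its terms. Among the 363 genes rho of the difference with the log2 ratio of input with over without the drug was -0.38. Restricted to genes whose inputs differed by less than 2-fold relative to the median gene, rho of the difference with density was 0.58 (310 genes). With the density of the input with the drug alone rho was 0.56, and with that of the input without it 0.58.

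The MitoProt score, a prediction of a mitochondrial presequence in the authors' deposited table, separated mitochondrial genes by whether they were enriched at all. Of 186 genes with a score under 0.5, 71 were enriched with the drug and 54 had a difference of at least 2-fold. Of 126 with 0.5 to under 0.9 the numbers were 78 and 69, and of 259 with 0.9 or more they were 214 and 188. The median differences of these groups were 0.31, 1.11 and 1.59. Among the enriched genes alone they were 1.37, 1.56 and 1.78, with medians of 1.11, 1.02 and 1.05 without the drug, and rho of the score with enrichment without the drug was -0.03 across the 363 genes. With length and density held, rho of the difference with the score was 0.16 over the 363 genes and 0.43 over all 571.

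The score separated inner membrane genes more than matrix genes. Enriched inner membrane genes with a score under 0.5, such as the carriers, which have internal targeting signals, had a median difference of 1.15 (31 genes), against 1.60 for those with 0.9 or more (62). For the matrix the medians were 2.02 (8 genes), 1.78 (31) and 2.00 (94) from the lowest to the highest class. Outside the reference set 237 genes had a score of at least 0.9, with a median difference of 0.19, and 55 of them (23.2%) had a difference of at least 2-fold. Over all 4570 genes outside the set 181 (3.96%) did. Of the 55, only 6 lack a mitochondrial gene ontology annotation in the deposited table, so the 55 are mostly genes annotated as mitochondrial in another way.

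The authors' deposited table also calls each gene enriched or not in each condition. Of 4923 measured genes with both calls, the authors' deposited table marks 209 as enriched in both conditions and 182 with the drug only. By the 2-fold limit used here all 209 were also enriched in both, and of the 182, 138 were enriched with the drug only and 44 in both. The authors' calls are stricter: 4518 genes are marked in neither condition, among them 213 classed here as drug only and 18 as enriched in both. Another 14 genes, 4 of them in the reference set, are marked as enriched without the drug only. All 14 were enriched in both conditions by the limit used here, with a median difference of 0.03. The 209 genes had a median density of 33.4 and a median length of 484 residues, the 182 genes 70.1 and 366.5. In the reference set, the authors' deposited table marks as also enriched without the drug 52 of 61 genes in the lowest density class, 36 of 57 in the next, 48 of 92 in the one after and 16 of 72 in the highest. By length the same count was 2 of 10, 46 of 120, 63 of 95, 26 of 36 and 15 of 21 in that table. By these calls the share also enriched without the drug fell from the lowest to the highest density class. The calls rest on the same 4 libraries and again select genes enriched with the drug, so they are not independent of the counts above.

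Genes outside the reference set made up 181 of the 492 with a difference of at least 2-fold, of which 103 carry a mitochondrial gene ontology annotation in the deposited table. Of the other 4069 genes, with neither annotation, 78 passed. Among these 78, 6 (7.69%) had a MitoProt score of at least 0.9. Among all 4570 genes outside the reference set, those with the gene ontology annotation included, 237 had such a score. A signal sequence was predicted for 3 of the 78. No share over the 4069 genes is given for either count, so neither can be read as high or low. The 8 highest differences outside the reference set belonged to ADH4, DUG1, YLR283W, ALT1, YLR294C, YGR021W, YPL168W and AIM23, of which YLR294C alone lacks the gene ontology annotation. ADH4, an alcohol dehydrogenase, stood at 3.88 (3.69 to 4.07), but its input held 245 reads with the drug and 20468 without. DUG1, a dipeptidase of glutathione breakdown, stood at 2.91, ALT1, an alanine transaminase, at 2.84 and AIM23 at 2.55. DUG1 went from 614 to 3845 RPM with the drug and from 600 to 787 without. Outside the reference set 45 genes were enriched in both conditions without a difference of at least 2-fold upwards, and 1 of them, TKL2, lay at -1.28. Named after their values were seen, MET6, the methionine synthase, differed by 0.86 (0.84 to 0.88) and CDC60, the cytosolic leucyl-tRNA synthetase, by 0.85 (0.82 to 0.89), intervals that exclude 0.

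None of the 32 genes with a difference at least 2-fold below the median gene was in the reference set. YGR067C had the lowest value at -1.86 (-2.48 to -1.24). The seripauperin gene PAU17 followed at -1.82, as did YML045W with YML045W-A at -1.82 and YJL047C-A at -1.81. Of the 32, 24 held fewer than 100 reads in the input without the drug, against 215 of 5141 genes, and 28 had an input that was higher with the drug than that of the median gene, against 2570 of 5141. PAU17 held 18 reads in that input and 97 in the pulldown. The counts of YML045W equal those of YML045W-A in all 4 libraries, so their reads cannot be assigned. With at least 500 reads over each pair 2 genes were that far below, and the part of the low counts in this side was not tested.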

How the data were processed

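Ribosome footprints of 4 libraries were compared, an input and a streptavidin pulldown with cycloheximide and the same pair without it, 1 library per group. The authors' deposited table gives raw read counts per gene, RPKM and the log2 enrichment of pulldown over input, per the file headers. It also gives protein length, compartment and gene ontology annotation, yes or no calls of enrichment from a ROC cutoff, and a MitoProt score of 0 to 1, per the file headers. Base calling used CASAVA and the build was sacCer3, per the submitters' processing notes. Not given in the sources used here are the aligner, the length filter and the counting of multi-mapping reads. Another fusion protein has 5 columns there, which were not used.

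From the counts, each library was scaled to its reads in 6664 nuclear genes, 28 mitochondrially encoded genes being left out of the totals. Genes needed at least 100 reads over each pair. A pseudocount of 0.5 was added, log2 ratios were taken, and each measure was centred on its median gene, at -0.73 with the drug, -0.03 without and -0.65 for the difference. Being enriched or different meant at least 2-fold. Intervals of enrichment were exact (Clopper-Pearson) 95% intervals of the pulldown's share of a pair's reads, and those of the difference used a normal approximation from the 4 counts. PCR reads carry no molecular identifiers, and a count of 0 allows up to 3 reads. Correlations are Spearman's rho across genes, with ranks regressed on the other features where those were held, and no p-value was computed. The calculation was tested on simulated data with known changes; the difference between conditions itself was not tested.

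The members and lists were chosen with earlier results of these data known. The 18 lists (14 mitochondrial, 4 of other cell parts) hold 398 genes, 5 matched by synonym, and 1 symbol, TSF1, was not found. A rule named 104 genes: the bait and the tagged ribosomal proteins, the 10 largest differences, the 10 highest without the drug among genes enriched in both with a difference under 2-fold, the 5 lowest among enriched genes, extremes and middle members of compartments and lists, extremes of length classes, the 8 highest and 5 lowest genes outside the reference set, and 3 genes to either side of 2-fold. Other list members in the text were chosen after their values were seen. Coordinates and names come from a RefSeq gene table of assembly R64, which held 5101 of the 5141 measured genes. A protein sequence analysis was planned but not run here. Alternatives changed the centring, scaling (TMM of edgeR 4.0.16 in R 4.3.3), pseudocount, read minimum, fold, input and annotation. The rest ran in Python 3.11.15 on pandas 2.3.3 and numpy 2.4.6, with scipy 1.17.1 for intervals and ranks and figures from matplotlib 3.10.9.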

Additional observations from a re-analysis of the deposited data

Results flagged for a closer look

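Of the mitochondrial genes and the genes named by rule, 6 were enriched with cycloheximide while their interval without it lay wholly below the median gene. With 1 library per group this difference between conditions was not tested. The differences were 3.29 for SSC1, 3.18 for ILV3, 2.94 for HSP60, 2.78 for KGD1, 2.73 for YLR294C and 2.36 for ILV5. YLR294C, an entry of 109 residues outside the reference set and not found in the reference gene table, held 193 and 940 reads with the drug and 183 and 109 without.

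Reads in the 28 mitochondrially encoded genes, which lie outside the measured nuclear genes, were 4.50 times as frequent in the pulldown as in the input without the drug. They numbered 106 in that input (5.83 RPM, scaled to nuclear-gene reads) and 412 in its pulldown (26.2 RPM). With the drug 317 reads were found in each library, or 14.1 RPM in the input and 8.46 in the pulldown.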

How the results depend on the processing

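No median or correlation changed sign under the alternatives run, and 170 of 196 recomputed values stayed within 1.5 times the reported count or near the reported value. The correlations were all taken among genes enriched with the drug, and no alternative dropped that choice. Over all 571 mitochondrial genes rho of the difference was 0.31 with length, against -0.16 among the 363. With density it was 0.01 over the 571, against 0.58. The recomputed values that moved were these. On library totals, without centring, 234 genes were higher and 693 lower, 65 mitochondrial genes were enriched in both with a 2-fold difference and 118 with less, so that both balances turned from 492 against 32 and 157 against 38, the matrix median was 0.83, the inner membrane median 0.40 with 36 genes higher, the TCA cycle median 2.10, and 3 lists had a median past 2-fold against 10 as reported. TMM without centring, which shifts every gene alike, put the TCA cycle median at 2.84. The matrix median was then 1.56 and the inner membrane median 1.14, both counted as near the reported value. The number of genes lower was 82 at 20 reads, 191 at 1 read, 2 at 500 reads, 8 with 100 reads in each input and 12 with inputs within 2-fold, and 201 at 1.5-fold. At 1.5-fold 17 mitochondrial genes were enriched in both with a difference under that. At 4-fold 143 genes were higher and 0 lower, 4 mitochondrial genes were enriched in both with such a difference, 62 matrix and 24 inner membrane genes were higher, and 2 lists had a median past it. At 500 reads rho of enrichment without the drug with density was -0.49. Over 668 enriched genes of any annotation, rho with the MitoProt score was 0.42 and that of enrichment without the drug with length 0.20. The causes were not tested.

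The number of drug-only mitochondrial genes ranged from 138 to 244. Annotation by reference set or gene ontology, and leaving out the TCA cycle and ATP synthase lists, were chosen after seeing the data. Protein sequence features were not run. No paired analysis was possible because each group held 1 library and the labels carry no replicate numbers, and no library could be left out. Depth limits the sparse genes most.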
